A study of Mus musculus with 8 samples.

Results

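Colon labelled as lacking DCIR and wild-type colon were compared at steady state, that is without any treatment named in the labels. The pair made up 2 of the 8 libraries of an RNA sequencing series in BALB/cA mice and was chosen by sample title, 1 library a side. The other 6 libraries cover both genotypes on day 12 of treatment with dextran sulfate sodium (DSS), a chemical that damages the gut lining, and on day 112 of combined azoxymethane and DSS treatment, sampled as non-polyp colon and as polyps. Both steady-state groups carry the labels colon and BALB/cA, one with genotype wild type and the other with DCIR-/-. The labels used here do not give the age of the mice, which part of the gene was removed, or how many animals went into a library. With 1 library a side no test was possible, so every difference below is a difference between these libraries and has no replicate check.

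DCIR, the dendritic cell immunoreceptor, is a C-type lectin on the surface of dendritic cells, macrophages and other myeloid cells. Its intracellular tail carries an inhibitory motif that recruits the phosphatases SHP-1 and SHP-2, encoded by Ptpn6 and Ptpn11, and so dampens signalling in the cell. In mice the gene is Clec4a2, in a cluster of related lectin genes. A healthy colon also holds an absorptive and mucus-secreting epithelium, lymphoid follicles rich in B cells, plasma cells that make immunoglobulin A, muscle, and fat attached to its outer side.

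Levels are in TPM, a share of all transcripts that is set per gene length and can be set side by side between genes, and differences are log2(TPM + 1) in the library labelled knockout minus wild type. Stated ratios are ratios of TPM, while counts of genes that differ 2-fold use the log2(TPM + 1) scale. The files list 54715 annotated genes, of which 16367 autosomal genes reached a mean of 1 TPM over the pair and were compared. The library labelled knockout was at least 2-fold higher on the log2(TPM + 1) scale in 658 genes, 4.02% of those compared, and at least 2-fold lower in 204, or 1.25%. The median difference of all genes compared was 0.10, and 63.2% had any higher value in that library, so each list below is read beside that shift. The deposited coverage implies 2.89 aligned gigabases in wild type and 3.015 in the library labelled knockout, and 16594 and 16995 genes reached 1 TPM. Epithelial markers, among them Epcam at 2276 and 1590 TPM and Krt8 at 4456 and 3953 TPM, were high in both libraries, as the colon label requires. Both also held Pbsn, a secretory gene of the prostate, at 2197 and 3606 TPM, and both held the Y-linked gene Ddx3y, at 27.8 and 30.9 TPM. The DSS pair held both genes as well, and the libraries of day 112 listed both at 0. The X-linked gene Xist was at 63.0 to 104 TPM on day 112 and at 0.114 TPM or below in the others. Sex, as read from these genes, thus changed with stage. Comparisons with day 112 and counts over all 8 libraries therefore also cross sex.

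Clec4a2 (ENSMUSG00000030148, chr6:123106428-123143999, plus strand, GRCm38) was lower but still present in the library labelled knockout. Wild type held 2.96 TPM and the library labelled knockout 0.659 TPM, 22.3% of wild type. The other wild-type libraries held 4.33 TPM on DSS, 2.74 in non-polyp colon and 3.68 in polyps, and the other 3 knockout libraries were listed at 0. The steady-state library thus lay apart from both sets. The deposited files also list loci assembled from the same reads, some of which carry the bounds of annotated genes, so they are not an independent measurement. Among them was a locus at chr6:123123316-123143999 in both steady-state libraries, at 3.11 and 0.666 TPM, which ends where the annotated gene ends. The mean coverage per base behind the annotated values was 3.66 and 0.768, which is thin in the library labelled knockout.

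Genes that separate the genotypes in the other 6 libraries gave a further reading of the label that the steady-state pair had no part in choosing. These were autosomal genes whose highest TPM in the 3 other knockout libraries was at least 4-fold below the lowest in the 3 other wild-type libraries, or the reverse. Besides Clec4a2, 3 pseudogene models were lower in the other knockouts. Gm13394 on chromosome 2 was at 354 to 453 TPM in the other wild-type libraries and at 0.169 to 0.545 TPM in the other knockouts. Its steady-state values were 393 TPM for wild type and 71.3 TPM for the library labelled knockout, 18.1% of wild type. Gm18840 and Gm44958, both on chromosome 6 at 124561215 and 131291603, stood at 13.1% and 15.5% of wild type. Assembled loci repeated the Gm13394 values with the same bounds in all 6 libraries that list them. A longer assembled locus spans Gm44958, and it gave a smaller separation, at 43.6 and 30.7 TPM at steady state, wild type first. Over Gm18840 the assembled loci, longer and of unequal bounds, went the other way at 31.6 and 121 TPM. On annotated rows all 4 genes lay between the range of the other knockouts and that of the other wild types, and their shares of wild type spanned 13.1% to 22.3%.

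In the opposite direction 3 genes were higher in the other knockouts, and at steady state they stood with the knockouts or beyond them. Bcl2l14, a relative of the apoptosis regulator BCL2 on chromosome 6, had annotated values of 10.96 and 73.1 TPM, wild type first, with the other knockouts at 39.4 to 104 TPM and the other wild types at 5.67 to 9.69 TPM. That separation belongs to the annotated row. The locus assembled from the same reads stood at 62.8 and 84.9 TPM at steady state, 41.8 and 39.6 TPM in non-polyp tissue, and 31.5 and 38.9 TPM in polyp, wild type first. On assembled loci Bcl2l14 therefore did not separate the genotypes in the libraries that list such loci. The antisense model 1700030A11Rik on chromosome 17 was at 4.47 and 67.7 TPM at steady state, and the assembled locus over it kept that order at 4.32 and 54.1 TPM. The small nuclear RNA model Gm25220 was at 1.19 and 2.38 TPM.

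When the limit was loosened from a 4-fold to a 2-fold separation, 11 genes were lower in the other knockouts, of which 9 were also lower at steady state. Of these 11, 8 lay between the ranges at steady state, 1 lay within the range of the other knockouts and 2 within that of the other wild types. Those 2 were Pianp at 86.1% and C1s2 at 86.4% of wild type, both on chromosome 6 within the stretch between Clec4a2 and Gm44958. Among the 8 between the ranges, Apod was at 4.76 and 12.5 TPM and Snx30 at 3.79 and 5.79 TPM, wild type first. For both, steady-state wild type lay below the range of the other wild types, which was 16.6 to 28.1 and 10.2 to 13.6 TPM. Of 20 genes higher in the other knockouts, 13 were also higher at steady state. In the library labelled knockout, 5 of the 20 lay within the range of the other knockouts, 5 beyond it and 7 between the ranges. A further 2 lay within the range of the other wild types and 1 beyond it. Steady-state wild type could also leave the range of the other wild types, as for Afdn at 63.6 TPM against 9.43 to 20.5 TPM. Whether the library labelled knockout holds RNA of more than 1 genotype was not tested, and its label stays in doubt for every comparison below.

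**Figure D1:**
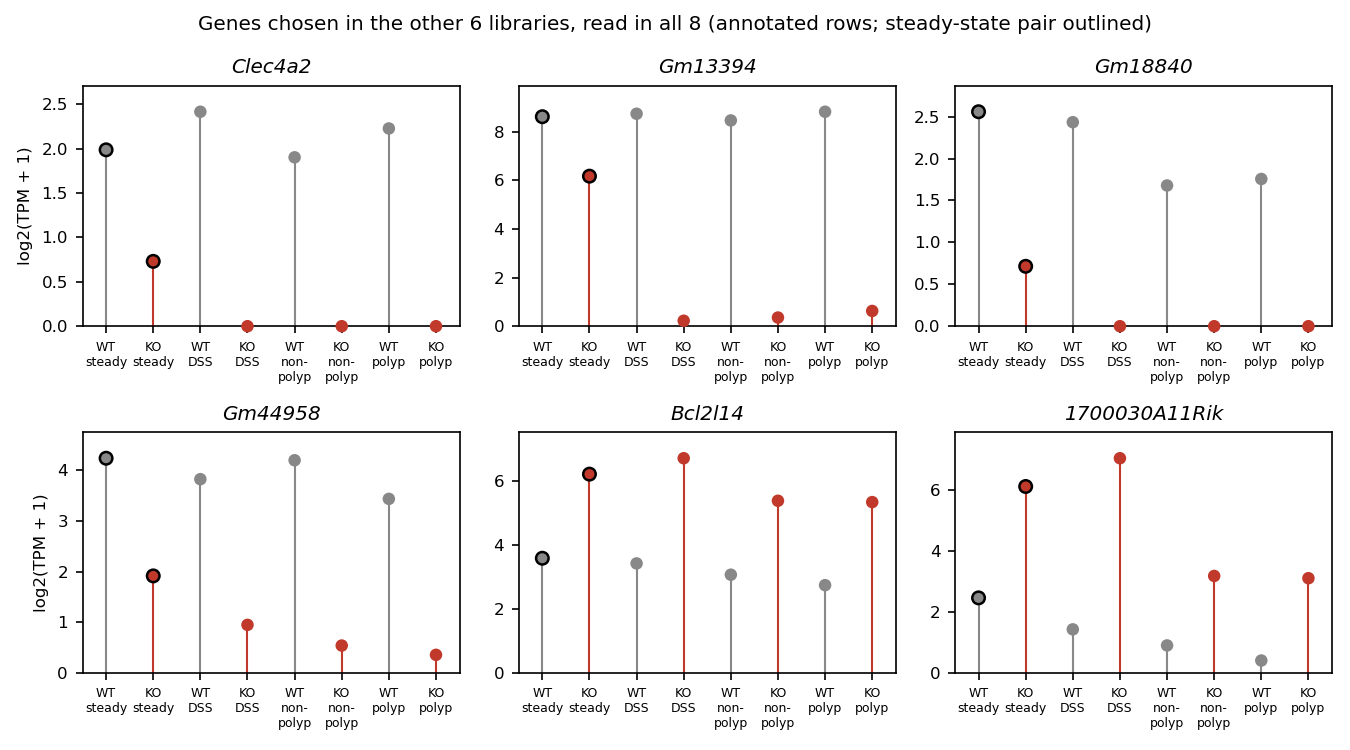
Level in each of the 8 libraries, as log2(TPM + 1) of the annotated rows on a separate scale for each gene, for 6 genes that separate the genotypes in the other 6 libraries; grey is wild type, red is knockout by label and black outlines mark the steady-state pair. For Clec4a2, Gm13394, Gm18840 and Gm44958 the steady-state library labelled knockout lies between the other knockouts and the wild types, whereas for Bcl2l14 and 1700030A11Rik it lies among the knockouts.

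Lectin genes of the same cluster were divided. Clec4a1 was at 6.30 and 9.81 TPM, wild type first as in all pairs of values that follow, and Clec4a3 was at 7.45 and 9.12 TPM. Clec4n, which encodes the fungal receptor Dectin-2, was at 13.3 and 26.5 TPM. The listed lectin genes nearest to Clec4a2 on either side were lower, as it was: Clec4b1 was at 1.88 and 0.414 TPM, and Clec4b2, under the level for comparison, at 0.554 and 0.0933 TPM. Clec4b1 was at 0.447 and 0.430 TPM in the DSS pair, 1.14 and 0.337 TPM in non-polyp colon, and 0.257 and 0.137 TPM in polyps. The phosphatase genes were all higher. Ptpn6 was at 40.7 and 59.1 TPM, Ptpn11 at 46.3 and 50.0 TPM, and Inpp5d, which encodes the lipid phosphatase SHIP-1 of blood cells, at 5.97 and 15.5 TPM. The assembled locus over Inpp5d gave a smaller ratio, at 15.1 and 20.6 TPM.

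B cell genes stood higher throughout in the library labelled knockout. All 22 listed genes were compared and all 22 were higher there, 14 of them at least 2-fold, with a median difference of 1.04 against 0.10 over all genes. Their summed level was 438 TPM in wild type and 946 TPM in the library labelled knockout. The antigen receptor genes Cd79a, Cd79b, Ighm and Ighd had differences from 0.91 to 1.27, and other B cell surface genes from 0.46 for Fcer2a to 1.44 for Cd22. Cd79a, which carries the signal of the B cell receptor, was at 33.7 and 79.8 TPM, a 2.37-fold ratio. Ighm and Ighd, the heavy chains of IgM and IgD on naive B cells, were at 119 and 289 TPM and at 22.8 and 49.0 TPM. Naive B cell genes were thus present in both libraries and higher in one.

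The 4 B cell transcription factors, Pax5, Spib, Pou2af1 and Bach2, had differences between 1.02 and 1.16. Pax5, which fixes B cell identity, was at 3.77 and 9.64 TPM. On its assembled locus Bach2 had a difference of 0.53. The largest ratio of the list was that of Ccr6, a receptor that guides B cells to the gut surface, at 1.29 and 13.5 TPM. The locus assembled over it gave a smaller difference, 1.37. Cr2, a complement receptor of B cells and follicular dendritic cells, was at 8.69 and 24.8 TPM on annotated rows and at 8.69 and 86.3 TPM on assembled loci. Of the 18 B cell genes with a matched assembled locus in both libraries all were higher there, at a median of 1.04. In bulk tissue, more cells of a type and more RNA per cell cannot be told apart.

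The B cell sum of the library labelled knockout was the highest of the 8, with the DSS pair next. The same 22 genes summed to 855 and 750 TPM in the DSS pair, nearer to the 946 TPM of the library labelled knockout than to the 438 TPM of wild type, and to between 151 and 171 TPM in the 4 libraries of day 112. The library labelled knockout was the highest of the 8 in 11 of the 22 genes, where 23.3% of all genes compared had their highest value there. The B cell median of the other pairs was -0.18 on DSS, 0.05 for non-polyp colon and -0.02 for polyps.

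Most genes of lymphoid follicles followed the same order. All 7 germinal centre genes compared of 8 listed stood above wild type, at a median of 0.71. Bcl6, the transcription factor of germinal centre B cells, was at 4.81 and 14.5 TPM, and at 9.55 and 16.6 TPM on its assembled locus. Of 10 genes compared of 12 listed for lymphoid stroma and chemokines, 8 were higher, at a median of 0.93. Cxcl13, the chemokine that draws B cells into follicles, was at 27.2 and 58.3 TPM. Ltb, a lymphotoxin subunit needed to build lymphoid tissue, was at 31.5 and 65.5 TPM. Among vessel genes, Madcam1, the docking molecule for gut-homing lymphocytes, was at 9.12 and 19.1 TPM and Glycam1 at 3.30 and 16.5 TPM. The most abundant vessel gene, Chst4, was lower at 56.8 and 47.1 TPM, as was the chemokine gene Ccl20 at 29.8 and 26.7 TPM. The T cell zone chemokines Ccl19 and Ccl21a were listed at 0 in all 8 libraries, so these rows say nothing about such zones. Gp2, a surface receptor of the M cells that cover follicles, was at 3.40 and 8.59 TPM, while the 7 M cell genes together had a median of 0.12.

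Immunoglobulin genes stood higher in that library too, but other plasma cell genes were not uniformly so. All 7 constant regions were higher, with the IgG classes the most. Ighg1 was at 39.0 and 125 TPM, Ighg2b at 67.1 and 236 TPM, and Ighg3 at 19.8 and 87.7 TPM. Igha, the constant region of the antibody that the colon secretes, was at 4372 and 7818 TPM. The joining chain Jchain was level at 1502 and 1489 TPM, and the plasma cell surface proteoglycan gene Sdc1, which epithelium also expresses, was at 129 and 96.9 TPM. Of 197 immunoglobulin variable segments compared, 151 were higher in the library labelled knockout, 65 of them at least 2-fold and 9 at least 2-fold lower, with sums of 9004 and 13829 TPM. The segments resemble each other and may share reads, so their split is uncertain. The plasma cell list had 13 genes with a median of 0.55. The 5 with a matched assembled locus, none of them a constant region, had a median of -0.01 on annotated rows and 0.00 on assembled loci.

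T cell genes were higher in 23 of the 24 compared of 26 listed, 7 of them at least 2-fold, at a median of 0.78. Trac, the constant region of the T cell receptor alpha chain, was at 2.86 and 10.8 TPM, and Lck, the kinase beside that receptor, at 8.21 and 19.3 TPM. Tcf7, a factor of naive and memory T cells, was at 9.42 and 19.9 TPM. Cd4 was at 7.91 and 10.4 TPM and Cd8a at 0.782 and 2.19 TPM. The exception was the checkpoint receptor gene Ctla4, at 1.27 and 1.13 TPM. The library labelled knockout was the highest of the 8 in 18 of the 24 genes, against 23.3% of all genes compared. The T cell median was 0.54 on FPKM, where 19 genes were compared. The 11 genes with an assembled locus had a median of 0.59 on annotated rows and 0.56 on assembled loci.

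Genes of myeloid cells, in which DCIR acts, were also higher. Of 15 macrophage and monocyte genes 14 stood above wild type, at a median of 0.60. Csf1r, the receptor for the macrophage growth factor, was at 23.0 and 44.2 TPM, and the complement gene C1qa at 148 and 229 TPM, whereas Cd14 was level at 48.0 and 48.1 TPM. Of 11 dendritic cell genes 10 were higher, at a median of 0.61. All 10 genes of MHC class II, which presents antigen to CD4 T cells, were higher at a median of 0.78, among them H2-Aa at 220 and 377 TPM. The class II transactivator Ciita was at 6.64 and 14.1 TPM. In the other pairs none of the 10 was higher on DSS, 3 were in non-polyp colon and 7 in polyps. The medians there were -0.35, -0.05 and 0.29. Of 7 neutrophil and mast cell genes 4 were higher at steady state, at a median of 0.01. Ptprc, the pan-leukocyte gene CD45, was at 9.90 and 39.9 TPM on annotated rows and at 15.1 and 45.3 TPM on assembled loci.

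Genes of the GM-CSF and STAT5 pathway, which the series title names, were close to level or moderately higher among those counted. None of these reached 2-fold on annotated rows. Of 11 compared of 15 listed, 10 were higher at a median of 0.40. The 9 with a matched assembled locus had a median of 0.40 on annotated rows and 0.39 on assembled loci. Among them Bcl2 had a difference of 0.42 on its annotated row and 1.49 on its assembled locus. The receptor subunit Csf2rb was at 6.32 and 12.3 TPM and the STAT5 target Cish at 9.79 and 14.0 TPM. Csf2, the ligand, was listed at 0 in both libraries. Csf2, Stat5a and Stat5b were left out of the counts because their deposited TPM departs from FPKM in other libraries of the series. In the steady-state pair it does not, and Stat5b was at 15.9 and 18.7 TPM. Stat5a was at 6.21 and 17.5 TPM, a 2.82-fold ratio, and its assembled loci were at 10.4 and 17.8 TPM.

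Every interferon-stimulated gene of the type I list that was compared stood above wild type. Type I interferons signal through a receptor shared by nearly all cells to transcription factors, among them STAT2 and IRF9, which bind an interferon-stimulated response element near the start of antiviral genes. Of 39 listed genes 37 were compared and all 37 were higher in the library labelled knockout, 15 of them at least 2-fold, at a median of 0.79. They summed to 1546 and 2739 TPM. The oligoadenylate synthetase rows Oas1a and Oas1g were listed at 0 in all 8 libraries. The library labelled knockout was the highest of the 8 in 33 of the 37 genes, against 23.3% of all genes compared. The sum of steady-state wild type, 1546 TPM, was also above those of the other 6 libraries. These were 1147 and 1122 TPM on DSS, 1328 and 780 TPM in non-polyp colon and 992 and 1042 TPM in polyps, wild type first. The other pairs did not share the order of all 37. The median of the list was -0.06 on DSS, -0.35 for non-polyp colon and 0.24 for polyps, with 16, 12 and 29 of the 37 higher.

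The promoters shown belong to the 4 members with the largest differences among those whose promoter in the RefSeq table holds the element. They carry the sequence through which this gene set is known to be controlled. Usp18 and Mx2, with differences of 1.55 and 1.37, had no promoter in that table and were not searched. Each runs from 250 bases before to 50 after the RefSeq start, read 5′ to 3′ on the gene's strand, GRCm38.p6. Capitals mark the letters GAAANNGAAA or, on the other strand, TTTCNNTTTC, with overlapping matches joined. Ifit1 lies at chr19:34640639-34640938 and Ifit3 at chr19:34583279-34583578, both on the plus strand. Rsad2 lies at chr12:26456403-26456702 and Isg15 at chr4:156200769-156201068, both on the minus strand.
Ifit1: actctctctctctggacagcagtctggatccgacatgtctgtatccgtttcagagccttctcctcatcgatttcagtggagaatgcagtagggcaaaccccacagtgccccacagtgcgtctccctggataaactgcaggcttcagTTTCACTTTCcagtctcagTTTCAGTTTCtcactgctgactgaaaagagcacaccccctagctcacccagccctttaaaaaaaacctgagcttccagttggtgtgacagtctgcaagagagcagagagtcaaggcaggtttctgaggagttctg
Ifit3: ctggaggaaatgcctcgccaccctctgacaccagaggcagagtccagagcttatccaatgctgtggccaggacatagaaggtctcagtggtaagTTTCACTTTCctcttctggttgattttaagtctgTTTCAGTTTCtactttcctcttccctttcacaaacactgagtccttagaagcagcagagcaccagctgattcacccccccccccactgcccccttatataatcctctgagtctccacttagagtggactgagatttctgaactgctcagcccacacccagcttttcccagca
Rsad2: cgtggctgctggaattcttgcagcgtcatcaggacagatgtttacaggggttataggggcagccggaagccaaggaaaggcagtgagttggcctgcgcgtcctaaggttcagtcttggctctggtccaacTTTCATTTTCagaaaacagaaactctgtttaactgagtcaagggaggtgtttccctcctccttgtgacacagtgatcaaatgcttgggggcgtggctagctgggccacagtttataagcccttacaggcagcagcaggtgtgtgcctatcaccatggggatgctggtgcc
Isg15: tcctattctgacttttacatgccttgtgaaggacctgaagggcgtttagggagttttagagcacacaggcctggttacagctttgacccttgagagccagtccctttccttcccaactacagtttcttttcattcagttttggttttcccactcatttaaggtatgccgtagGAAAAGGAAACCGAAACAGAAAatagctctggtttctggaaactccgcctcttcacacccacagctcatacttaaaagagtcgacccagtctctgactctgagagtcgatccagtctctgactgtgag

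The element was found in 14 of the 26 listed type I interferon genes that had a promoter in the RefSeq table, which is 53.8%, in 9 of 14 interferon gamma genes and in 3.44% of all 32851 promoters. Among genes with a promoter there, none of 24 adipocyte genes and 1 of 15 B cell genes held it. Lists are counted by gene. The type I list was made of interferon-stimulated genes, so its share says nothing about the steady-state pair. Ifi44 and Ifit2, which had large differences too, lack these letters in the window, which says only that they are not in that window. Holders of the element also had small differences, among them Eif2ak2 at 0.29 and Ifih1 at 0.45.

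The tetratricopeptide genes, whose proteins bind foreign RNA, had the highest median among the roles with at least 3 members, at 1.48. Ifit1 (chromosome 19) was at 20.4 and 78.4 TPM, a 3.85-fold ratio, and between 10.5 and 16.3 TPM in the other 6 libraries. Ifit2 was at 9.25 and 35.8 TPM and Ifit3 at 6.79 and 20.8 TPM. The library labelled knockout stood alone for all 3 genes, and wild type at steady state lay with or just above the rest of the series.

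The ubiquitin-like system was similar. Isg15, a ubiquitin-like protein attached to others during antiviral responses, was at 117 and 294 TPM, a 2.52-fold ratio, and at 44.9 to 106 TPM in the other 6 libraries. Usp18, which removes it again, was at 7.73 and 24.6 TPM, but its polyp libraries were higher still, at 39.6 and 38.9 TPM. Among effectors, Rsad2, which encodes the antiviral enzyme viperin, was at 8.82 and 25.3 TPM and the GTPase gene Mx2 at 2.78 and 8.78 TPM. Oasl2 was at 54.0 and 125 TPM. Ifi44 had the largest difference of the list, 2.06, at 4.36 and 21.4 TPM, and on assembled loci the difference was 1.08.

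The factors and sensors that drive the response were higher too, none of them by 1 or more in log2(TPM + 1), though the sensor gene Zbp1 came near it at 50.0 and 100.1 TPM. Irf7, Stat2 and Irf9 had differences of 0.73, 0.56 and 0.22. The 5 RNA sensors of the list had a median of 0.73. The interferon ligands themselves were not seen: Ifnb1, Ifna4, Ifnl2, Ifnl3 and Ifng were listed at 0 in both libraries. All of these but Ifng were listed at 0 in all 8 libraries, so those rows say nothing about the pair. Genes for the receptors had a median of 0.11, close to the 0.10 of all genes, with Ifnar1 at 29.0 and 34.8 TPM and Ifngr1 at 301 and 282 TPM. A ligand listed at 0 at 1 time point of bulk tissue cannot be read as absence.

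Genes that respond mainly to interferon gamma were higher in 19 of 19 compared of 20 listed, 3 of them at least 2-fold, at a median of 0.81. The guanylate-binding protein gene Gbp3 was at 14.8 and 35.7 TPM, and the immunity-related GTPase gene Igtp at 25.0 and 48.7 TPM. Nlrc5, the transactivator of MHC class I genes, was at 2.70 and 7.90 TPM. Many of these genes also respond to type I interferon. Assembled loci gave the same picture for both lists, with 30 of 30 type I genes and 13 of 13 interferon gamma genes higher, at medians of 0.82 and 0.80.

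**Figure D2:**
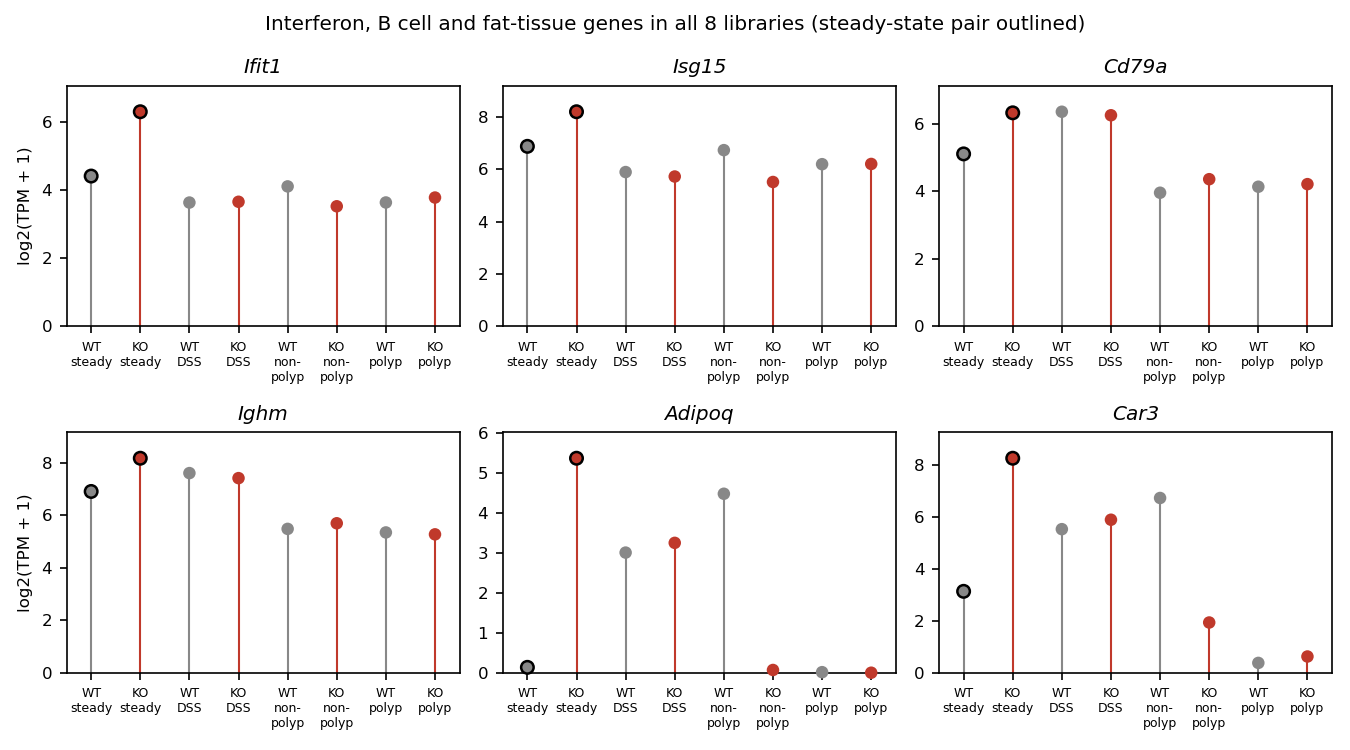
Level in each of the 8 libraries, as log2(TPM + 1) on a separate scale for each gene, of the interferon-stimulated genes Ifit1 and Isg15, the B cell genes Cd79a and Ighm and the fat-tissue genes Adipoq and Car3; grey is wild type, red is knockout by label and black outlines mark the steady-state pair. The library labelled knockout is alone at the top for Ifit1, at 78.4 TPM, while for Cd79a it lies beside the DSS pair and for Adipoq wild type at steady state lies below both DSS libraries.

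Fat-tissue genes held the largest single differences. Of 35 listed adipocyte genes 34 were compared, 31 were higher in the library labelled knockout and 19 of them at least 2-fold, at a median of 1.09. They summed to 1134 and 2632 TPM. Adipoq (ENSMUSG00000022878, chr16:23146536-23158028, plus strand, GRCm38), which encodes the fat hormone adiponectin, was at 0.0979 and 40.4 TPM, and the hormone gene Retn was listed at 0 in wild type and at 15.9 TPM in the library labelled knockout. Car3, a carbonic anhydrase abundant in adipocytes, was at 7.82 and 310 TPM, a 39.6-fold ratio. Cfd, the serum protease adipsin, was at 9.46 and 222 TPM. Genes near 0 in wild type are thus joined by genes that were clearly present there.

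Differences were largest among adipokine and lipid droplet genes. The 4 adipokine genes had a median of 4.25 and the 3 lipid droplet genes, among them Plin1 at 0.343 and 16.7 TPM and Cidec at 2.21 and 42.0 TPM, a median of 3.72. Lpl, which releases fatty acids from circulating fat, was at 3.96 and 40.3 TPM, and the fatty acid carrier gene Fabp4 at 47.7 and 357 TPM. The 9 lipogenic genes, many of which other colon cells also use, had a median of 0.55. Of these, Thrsp was at 1.75 and 36.1 TPM while Elovl6, an enzyme that lengthens fatty acids, was at 17.6 and 13.1 TPM. The transcription factors Pparg and Cebpa were at 19.3 and 20.04 TPM and at 49.5 and 61.5 TPM.

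The adipocyte sum of steady-state wild type, 1134 TPM, lay among those of the other libraries. These were 1043 and 1142 TPM on DSS, 1674 and 879 TPM in non-polyp colon and 849 and 887 TPM in polyps. For single genes the order could differ. In the DSS pair Adipoq was at 7.05 and 8.53 TPM and in non-polyp wild type at 21.3 TPM, all above steady-state wild type. Non-polyp knockout and both polyp libraries were at 0.0486 TPM or below. The library labelled knockout was the highest of the 8 in 24 of the 34 adipocyte genes, against 23.3% of all genes compared. The median of the list was 0.03 in the DSS pair and -1.16 in the non-polyp pair. The brown fat genes were level in sum, at 145 TPM in both libraries. Cox7a1, the most abundant of them, was at 125 and 104 TPM, whereas Cidea was at 0.555 and 8.71 TPM, Cox8b at 2.39 and 11.6 TPM, and Ucp1, under the level for comparison, was listed at 0 and 1.61 TPM.

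Genes of tissues that adjoin the colon also differed in the pair, to varying degrees. All 5 genes of mesothelium compared, the outer lining of the gut and its fat, were higher in the library labelled knockout at a median of 0.70, with Msln at 2.64 and 5.20 TPM. Of 11 accessory gland genes of the male tract 9 were higher, at a median of 0.86, among them Msmb at 29.5 and 92.0 TPM and Tgm4 at 1094 and 1611 TPM. Contractile smooth muscle genes were nearly level, with 8 of 12 higher and a median of 0.13. Mylk, the kinase that triggers contraction, stood out at 23.4 and 88.8 TPM on its annotated row, but its largest assembled loci were at 347 and 442 TPM. The 9 fibroblast and matrix genes were all higher, at a median of 0.46. Whether unequal amounts of attached tissue have a part in the fat, lymphoid or interferon differences was not tested.

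**Figure D3:**
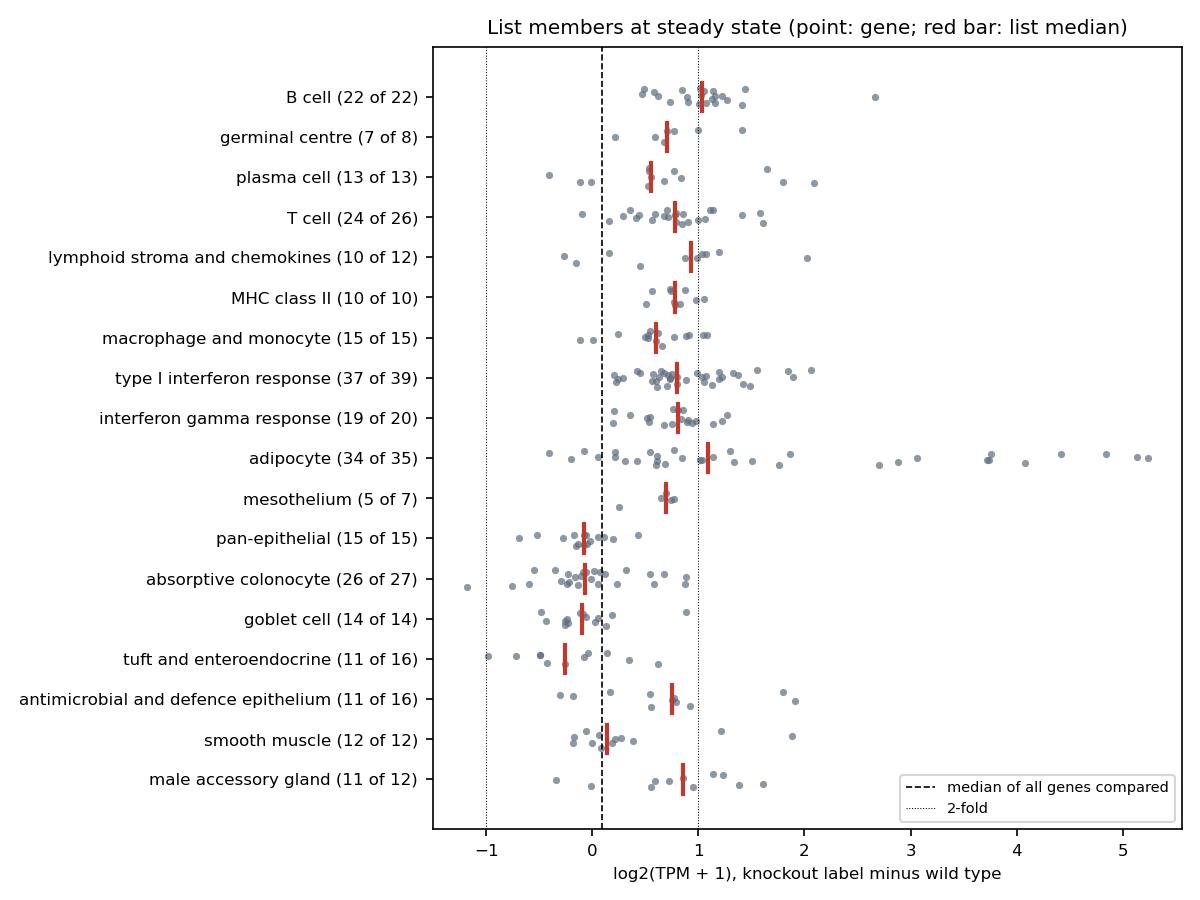
Difference in log2(TPM + 1), library labelled knockout minus wild type, of each compared gene in 18 lists, with the number compared of the number listed; points are genes, red bars are list medians and the dashed line is the median of all genes compared. The B cell, type I interferon and MHC class II points all lie above 0, the adipocyte points extend past 5, and the epithelial lists centre near 0.

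Epithelial genes were close to level as groups. The 15 pan-epithelial genes had a median of -0.08, with 4 higher and none differing 2-fold, and summed to 15019 and 13923 TPM. The adhesion genes were all slightly lower in the library labelled knockout, Epcam by the most, with a difference of -0.52. Cdx2, a transcription factor of intestinal identity, was at 83.7 and 51.4 TPM, whereas its relative Cdx1 was at 366 and 352 TPM. Krt20, a keratin of mature surface cells, was at 542 and 733 TPM. Beside the higher lymphoid and interferon lists, the epithelial total was 0.927 times that of wild type.

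Within absorptive colonocytes the roles divided. The list had a median of -0.07 over 26 genes, but 8 of its 10 ion and water transport genes stood above wild type, at a median of 0.43. Slc26a3, the chloride and bicarbonate exchanger of the colon surface, was at 460 and 846 TPM. The epithelial sodium channel subunits Scnn1a, Scnn1b and Scnn1g were at 65.1 and 95.5, 13.9 and 22.8, and 9.12 and 17.7 TPM. Car1, a carbonic anhydrase of the same cells, was lower at 1633 and 1082 TPM. Transport genes thus did not all share an order.

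Metabolic genes of the same cells tended the other way. The 4 lipid and bile acid genes had a median of -0.39, with Fabp2, a fatty acid carrier of the gut, at 17.9 and 11.9 TPM. The 4 conjugation and detoxification genes had a median of -0.26, with Cyp2c55 at 321 and 189 TPM. These roles hold few genes, so their medians rest on little.

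The 14 goblet cell genes had a median of -0.10 and 5 were higher. Muc2, the gel-forming mucin of the colon, was at 390 and 367 TPM and Tff3, a trefoil peptide secreted with it, at 3449 and 2884 TPM. Fcgbp, a mucus protein linked to Muc2, went the other way at 303 and 559 TPM. Of 9 enteroendocrine genes 2 were higher, at a median of -0.43, with Tph1, the enzyme for gut serotonin, at 22.6 and 10.9 TPM and Insl5, a hormone of the distal colon, at 246 and 150 TPM. Proliferation genes were level, with a median of 0.07 over 10.

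Antimicrobial genes of the epithelium had a median of 0.75 with 9 of 11 higher, but several of these were at a few TPM. Ang4 was at 0.306 and 3.56 TPM and Lcn2, which binds bacterial iron carriers, at 1.21 and 3.18 TPM. The abundant members went the other way: Saa1 was at 2153 and 1739 TPM and Pigr, which carries immunoglobulin A across the epithelium, at 1996 and 1760 TPM. The sum of the list was accordingly lower in the library labelled knockout, at 4352 and 3778 TPM.

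**Figure D4:**
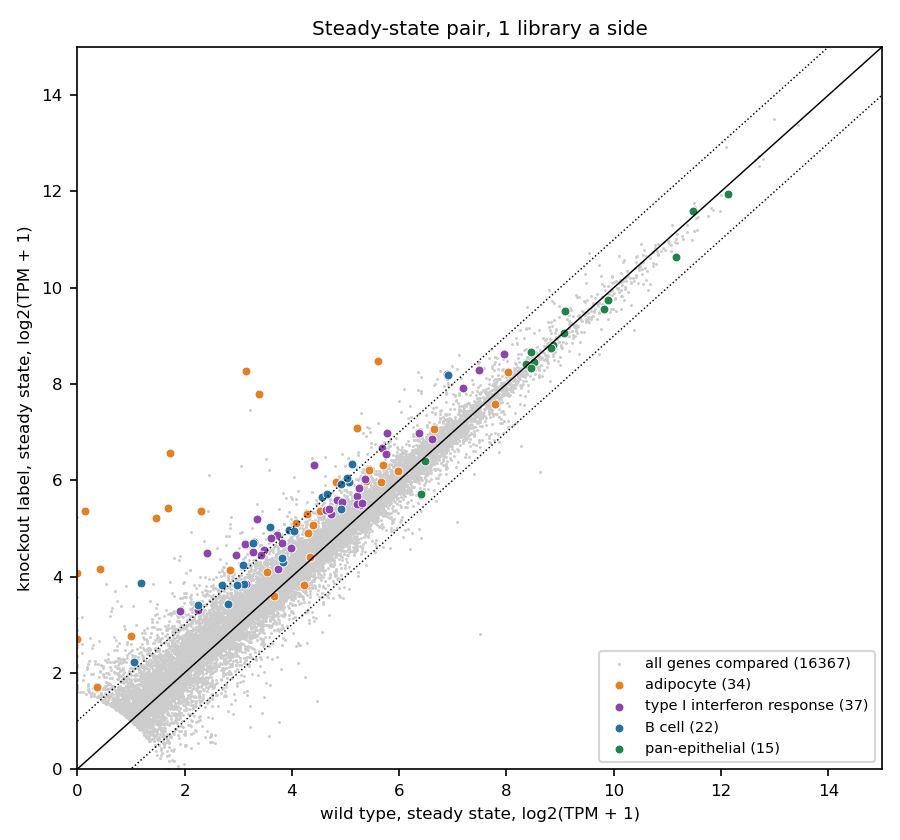
Each compared gene in wild type (horizontal axis) and in the library labelled knockout (vertical axis) at steady state, both as log2(TPM + 1), with 4 lists in colour; the solid line marks equal values and the dotted lines a 2-fold difference. Adipocyte genes reach farthest from the line, interferon and B cell genes all lie above the solid line, and the 15 pan-epithelial genes lie on or near it. At or past the upper dotted line are 15 of 37 type I interferon and 14 of 22 B cell genes.

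The genes with the largest differences were named by a fixed rule, 12 in each direction among genes whose higher value was at least 5 TPM. Of the 12 higher in the library labelled knockout, 9 belong to the adipocyte list: Adipoq, Car3, Cyp2e1, Cfd, Retn, Thrsp, Cidec, Plin1 and Lpl. The others were Hp, which encodes the haemoglobin-binding protein haptoglobin, at 0.442 and 13.5 TPM, the mitochondrial ribosome gene Mrpl33 at 10.5 and 85.3 TPM, and the precursor microRNA row Mir1894, listed at 0 and 6.40 TPM. The assembled locus over Mrpl33 gave 72.0 and 93.3 TPM, so the size of that difference depended on the row read.

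The 12 lower genes shared no list. Slc34a2, a sodium and phosphate cotransporter, led them at 21.2 and 1.67 TPM, with 11.7 and 13.9 TPM in the DSS pair, and assembled loci of unequal bounds over it gave 22.4 and 5.55 TPM. Gsdme, a gasdermin that forms pores in dying cells, was at 8.36 and 0.839 TPM. The histone gene Hist1h4k was at 9.90 and 1.24 TPM. Nupr1, a stress-induced nuclear protein, was at 135 and 34.1 TPM, while assembled loci of unequal bounds over it gave 135 and 99.9 TPM.

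For several of the lower genes the size of the difference depended on the row read. Of the 12, 7 had a matched assembled locus in both libraries, and 2 of these were at least 2-fold lower there. Vamp8, a membrane fusion protein of secretory cells, was at 309 and 104 TPM on its annotated row and 309 and 270 TPM on assembled loci. Lrmp, a membrane protein of lymphoid and tuft cells, was at 72.7 and 22.7 TPM against 75.9 and 57.9 TPM. Ppih, a spliceosome protein, changed order, from 16.0 and 4.89 TPM to 17.2 and 23.8 TPM. Hoxa3 was at 10.4 and 2.44 TPM against 20.3 and 11.5 TPM, and Zfp444 at 22.7 and 6.22 TPM against 23.2 and 11.6 TPM.

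Over all genes the second table repeated part of the 2-fold differences. A matched locus existed in both libraries for 11878 of the genes compared. Of 313 genes at least 2-fold higher with such a locus, 216 were 2-fold higher there as well, and of 90 lower genes 46 were. The type I interferon and pan-epithelial medians moved little, from 0.79 to 0.82 and from -0.08 to -0.07. The 26 adipocyte genes with a matched locus had a median of 0.85 there and 0.81 on annotated rows. Adipoq, Retn, Plin1 and Cyp2e1 had no matched locus in wild type.

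**Figure D5:**
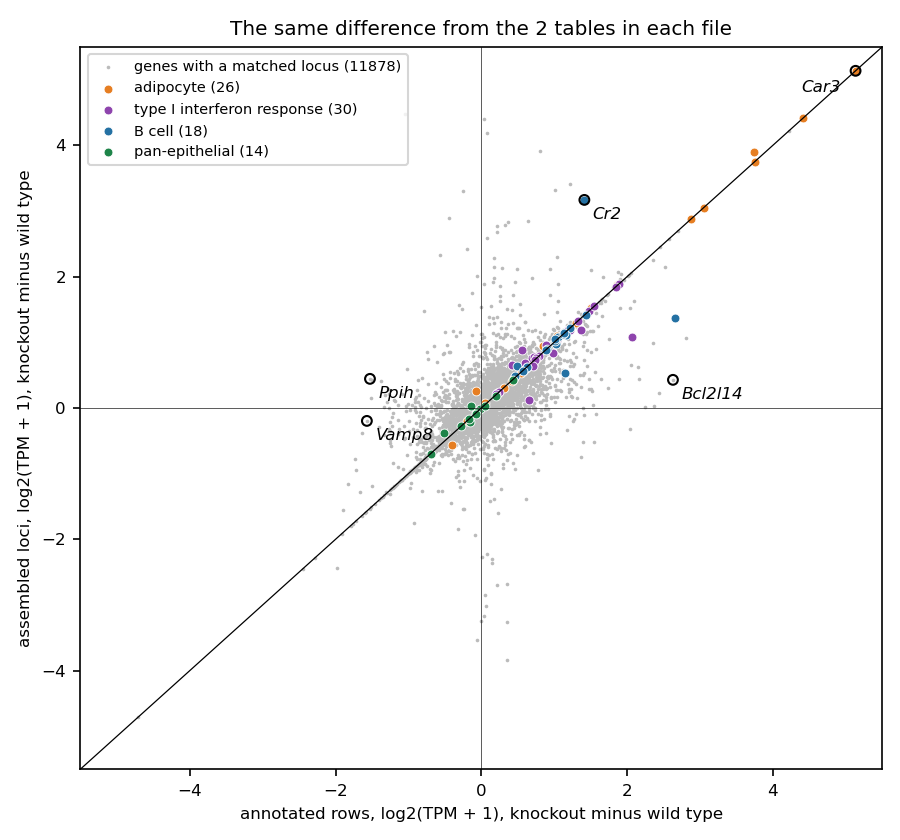
Difference in log2(TPM + 1), library labelled knockout minus wild type, from annotated rows (horizontal axis) and from matched assembled loci of the same reads (vertical axis) for 11878 genes, with 4 lists in colour and 5 genes circled; the diagonal marks equal differences. Most list members lie on the diagonal, whereas Vamp8 and Bcl2l14 lie near 0 on the vertical axis and Ppih changes sign.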

How the data were processed

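Libraries were prepared from total RNA of flash-frozen colon with a NEBNext Ultra RNA kit, per the labels. The authors deposited, per the file headers, coverage (mean signal per base), FPKM and TPM per gene. The submitters' processing notes name StringTie and GRCm38 (mm10). Not given in the sources used here are versions, the aligner, the annotation release and any use of strand. In 6 of the 8 deposited files the TPM column stacks an annotated table and a table of loci assembled from the reads, some with annotated bounds, each scaled on its own, so it was entered as a score for the unit check and split before use.

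Annotated TPM was summed per gene ID. Genes on chrX and chrY were left out of all counts and lists, as were 10 genes whose TPM over FPKM left its library's median ratio by more than 0.1%. The difference of log2(TPM + 1) was taken where the mean TPM of the pair reached 1, and the pseudocount of 1 understates the change of low genes. An assembled locus was matched to a gene where each was the other's best same-strand overlap and the shared length was at least 0.5 of their union. Coordinates are those of the deposited annotated rows, and names come from a reference list that holds 54686 of the 54715 gene IDs. Gene types come from GENCODE M21, in which 54686 of 54715 gene IDs were found, 54000 with identical coordinates. Promoter sequences come from RefSeq (GRCm38.p6). Named genes are Clec4a2, the 12 largest differences per direction with a higher TPM of at least 5 and a name that is not a predicted model, pseudogene, ribosomal gene or receptor segment, list members and genes that separate the genotypes elsewhere. The members and lists were chosen with earlier results of these data known. Read counts are not given, so no counting interval was set, and a value of 0 is only listed at 0. Some list members are counted but not reported here by name. The steps were tested on simulated data. Python 3.11.15, numpy 2.4.6, pandas 2.3.3 and matplotlib 3.10.9 were used.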

Additional observations from a re-analysis of the deposited data

Results flagged for a closer look

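Some list medians of the steady-state pair, all above 0.5, had the opposite sign and a size above 0.5 at another stage. The difference between the pairs was not tested, and each rests on 1 library a side. In the DSS pair the interferon gamma response list had a median of -0.53, against 0.81 at steady state, the macrophage and monocyte list -0.55 against 0.60, and the dendritic cell list -0.58 against 0.61. In the non-polyp pair the adipocyte list had a median of -1.16, against 1.09 at steady state, and the mesothelium list -1.21 against 0.70. The non-polyp libraries were unlike in other lists too, and the knockout one was near the polyps. Crypt stem and WNT target genes summed to 255 and 2236 TPM there and 1803 and 2004 TPM in polyps, wild type first. Smooth muscle genes summed to 10951 and 850 TPM there and 846 and 534 TPM in polyps. The part of such tissue differences in these medians was not tested. The brown adipocyte list, with 4 genes compared, had a median of -1.10 in the non-polyp pair and -0.56 in the polyp pair, against 1.09 at steady state.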

How the results depend on the processing

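Of 79 recomputed values under other settings, 64 kept their size and 15 moved, and no called value changed sign. The 658 higher and 204 lower genes became 1058 and 381 with a pseudocount of 0.1, 365 and 83 with a mean TPM of at least 5, 301 and 111 on FPKM, and 322 and 91 on assembled loci, which cover fewer genes. Median-of-ratios rescaling moved the median of all genes from 0.10 to 0.00 and left 534 higher and 250 lower. The T cell median was 1.00 with a pseudocount of 0.1 and 0.54 on FPKM, where 19 genes were compared. It was 0.56 on the 11 genes with assembled loci, which had 0.59 on annotated rows. The adipocyte median was 0.85 on assembled loci. The genes that separate the genotypes elsewhere were 4 lower and 3 higher, against 11 and 20 at a 2-fold limit, and 1 higher at an 8-fold limit. The cause of these shifts was not tested, apart from the smaller number of genes on assembled loci. The assembled-locus setting and the circadian and Hox lists were chosen after seeing the data. No paired analysis of the steady-state contrast was possible because each group holds 1 library, and a comparison of genotypes paired by stage was not run. The results could not be repeated without the library whose label is in doubt, since it is the only one of its group. Depth limits Clec4a2 and other genes of thin coverage, and no interval can be set without counts.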

Other observations

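Circadian clock genes, chosen after their values were seen, divided by role at steady state. All 13 output and repressor genes compared were higher in the library labelled knockout, at a median of 0.85, and all 3 activators were lower, at a median of -0.50. Ciart, a repressor of the clock, was at 6.30 and 36.5 TPM, wild type first. Dbp, a transcription factor driven by the clock, was at 134 and 317 TPM and Per2 at 12.6 and 28.0 TPM. Arntl, which encodes the activator BMAL1, was at 12.1 and 7.04 TPM. The labels used here give no time of day for the collection of tissue, and the part of such a time in other differences was not tested.

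Hox genes, which mark position along the body axis and were also chosen after their values were seen, were near level. Of 11 genes compared, 3 were higher in the library labelled knockout, at a median of -0.09. Hoxb13 was at 384 and 381 TPM, Hoxd13 at 183 and 169 TPM, and Hoxa3, described in the report, was the only one that differed 2-fold.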
